A study of Mus musculus with 7 samples.

Results

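The genes described here are 10 members of the p53 and Gadd45 stress response (Trp53, Mdm2, Mdm4, Cdkn1a, Ccng1, Phlda3, Trp53inp1, Gadd45a, Gadd45b and Gadd45g), taken by symbol from the 23284 genes of a count table, and all 10 were found and passed the filter on low counts. They were measured by RNA sequencing in bone marrow hematopoietic stem cells (HSCs) of mice on a C57BL/6 background that carried a green fluorescent reporter of Hdc, the gene for the enzyme that makes histamine. A bright fraction, Hdc-GFPhi (3 libraries), was set against a dim one, Hdc-GFPlo (4 libraries), with RNA of 500 sorted cells per library. For Hdc-GFPlo replicate 4 the label of the sort reads Hdc-GFP-, unlike the other 3, while its title places it with Hdc-GFPlo. The reporter's construction, the age and sex of the mice and the surface gate for HSCs were not given in the sources used here. Nothing in the labels says that libraries came from separate animals, so the p-values measure the spread between these libraries, which may be technical.

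p53, the product of Trp53, is a transcription factor that is kept low by the ubiquitin ligase Mdm2 and its relative Mdm4, and that switches on genes of cell cycle arrest, repair and death when DNA is damaged. In HSCs it is known for holding cells in quiescence and for limiting their number after stress. The Gadd45 proteins are small stress sensors without known enzyme activity that bind the kinase Map3k4 to activate p38 and JNK, bind PCNA, and inhibit the mitotic kinase made of Cdk1 and cyclin B1. Of the 3, Gadd45a is the classical p53 target, while Gadd45b and Gadd45g are also induced by cytokines and other stress signals.

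The 3 Hdc-GFPhi libraries held 21090553 to 23688672 counts each, and the 4 Hdc-GFPlo libraries 19606124 to 22472061. Hdc itself was at 37.6, 18.7 and 33.9 CPM in the Hdc-GFPhi libraries and at 16.2, 16.7, 21.6 and 4.44 CPM in the Hdc-GFPlo libraries, so that the groups overlapped and the library labelled Hdc-GFP- was lowest. All 18 genes of the HSC marker list were detected. The list also held Cd48, Flt3 and Ptprc, which are not particular to HSCs, so detection alone does not identify the cells. Of the 18, 14 had lower and 4 higher values in Hdc-GFPhi. At an unadjusted edgeR p under 0.05, 3 were lower and 1 higher (22.2%, against 12.2% of all genes tested). Their sum was 4737 to 5205 CPM in the Hdc-GFPhi libraries and 5518.5 to 5678 CPM in the Hdc-GFPlo ones. Kit, the stem cell factor receptor, had the most negative log2 fold change of the list. It was at 1198 ± 179.5 CPM (SD, n = 3) in Hdc-GFPhi and 1590.3 ± 81.3 CPM (SD, n = 4) in Hdc-GFPlo. The T cell gene Cd3e had no count in any library. The 13 lymphocyte markers listed, Cd3e included, summed to 160 to 227 CPM in the Hdc-GFPhi libraries and 133 to 163 CPM in the Hdc-GFPlo ones. All 5 of these that were tested had higher values in Hdc-GFPhi. Of them 1 (20%) was at an unadjusted edgeR p under 0.05, against 4.92% of all genes tested that were higher. Markers of neutrophils and monocytes were abundant, with a summed level over 18 genes of 7641 to 10358 CPM in the Hdc-GFPhi libraries and 3900 to 8713 CPM in the Hdc-GFPlo ones. Of these 18 genes 17 had higher values in Hdc-GFPhi, 9 of them at an unadjusted edgeR p under 0.05, where 4.92% of all genes tested were higher at that p. Erythroid and megakaryocyte markers summed to 881 to 1221 CPM in the Hdc-GFPhi libraries and 589 to 928 CPM in the Hdc-GFPlo ones. Of the 10 tested, 9 had higher values in Hdc-GFPhi. DESeq2, which called 0.718% of genes higher, called 3 of them (Pf4, Itga2b and Vwf), all from the megakaryocyte part of the list. The globin genes of the list, Hbb-b1 and Hba-a1, had no count in any library. The part of these marker genes in the values of the members was not tested. In bulk RNA, fewer cells of a type and less RNA per cell cannot be told apart. Hdc-GFPhi replicate 1 stood apart in its immediate early genes, the transcription factors and phosphatases that respond to stimulation within minutes, with 12017 CPM summed over 27 genes against 3232 and 2731 CPM in the other Hdc-GFPhi libraries. In Hdc-GFPlo the same sum was 2618, 2381, 2472 and 4742 CPM in replicates 1 to 4. Of the 25 immediate early genes that were tested, 23 had higher values in Hdc-GFPhi. At an unadjusted edgeR p under 0.05, 4 (16%) were higher and 0 lower, against 4.92% and 7.31% of all genes tested. The groups did not overlap for 1 of the 25 (4%), Nfkbia, against 11.9% of all genes tested. The other genes at that p, Fosb, Klf2 and Klf4, were at 62.7, 132 and 12.4 CPM in Hdc-GFPhi replicate 1. In no other library were they above 7.98, 15.5 and 1.07 CPM. The count was not repeated without Hdc-GFPhi replicate 1. The same Hdc-GFPhi replicate 1 also stood apart in 8 eosinophil, basophil and mast cell genes, with a sum of 615 CPM against 19.0 and 19.3 CPM in the other Hdc-GFPhi libraries and 16.7 to 34.2 CPM in Hdc-GFPlo, and in myeloid progenitor genes, with 2751 CPM against 954 and 475 CPM in the other Hdc-GFPhi libraries and 158 to 1497 CPM in Hdc-GFPlo. Results are therefore also given without Hdc-GFPhi replicate 1 or without Hdc-GFPlo replicate 4 where that matters. CPM stands for read counts brought to a common library size with TMM factors, on which a count of 0 leaves room for up to 3 counts, or 0.125 to 0.160 CPM.

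**Figure D1:**
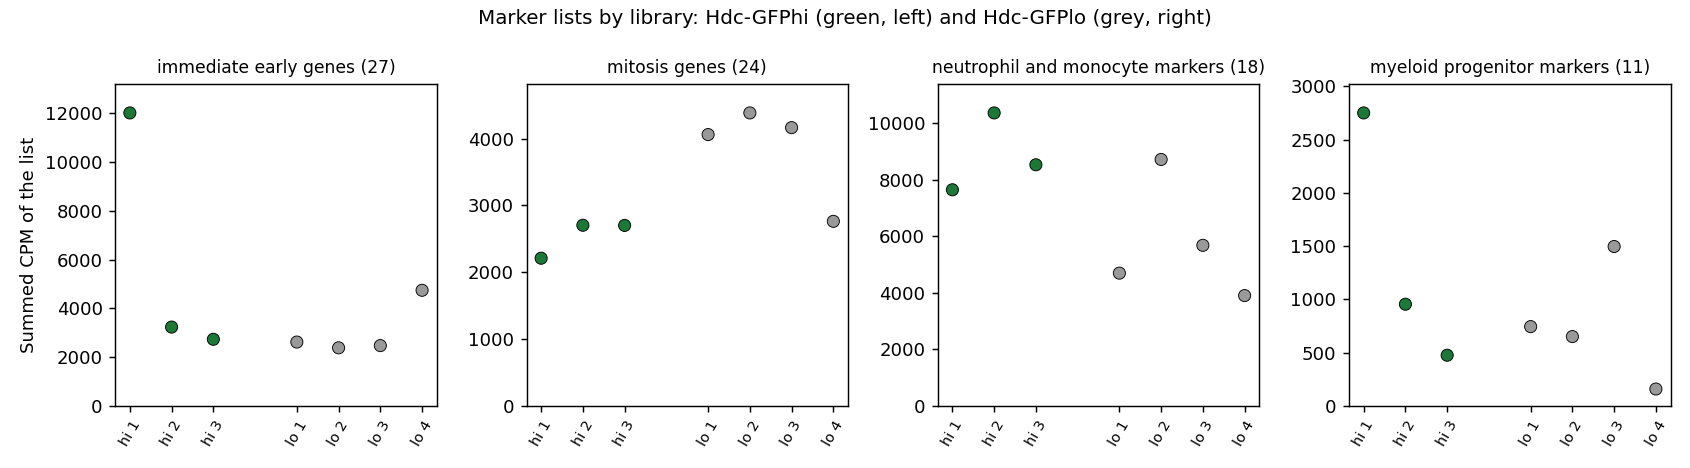
Summed CPM (y axis, from 0) of 4 gene lists in each library (x axis; green points Hdc-GFPhi, left; grey points Hdc-GFPlo, right; the number of genes is in each title). Hdc-GFPhi replicate 1 is highest for immediate early and myeloid progenitor genes, and Hdc-GFPlo replicate 4 lies nearest to the Hdc-GFPhi libraries for mitosis genes.

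Of the 10 members, Gadd45g had higher values in Hdc-GFPhi, 2.30 times as high on average, while Trp53inp1 and Ccng1 had lower ones, at 0.520 and 0.591 of the Hdc-GFPlo mean. Trp53 itself was slightly higher, at 1.09 times, and its inhibitors Mdm2 and Mdm4 were at 0.922 and 0.948 of the Hdc-GFPlo mean. By edgeR's quasi-likelihood F test, adjusted over all 12917 genes tested, 0 of the 10 and 0% of all genes reached the threshold of 0.05. At an unadjusted edgeR p under 0.05 there were 3 members, 1 higher (Gadd45g) and 2 lower (Trp53inp1 and Ccng1), against 12.2% of all genes tested (4.92% higher and 7.31% lower). The same 3 were the members called by DESeq2 at an adjusted p of 0.05, which gave no adjusted p to Cdkn1a, Phlda3 and Gadd45b. DESeq2 called 3.48% of the 9895 genes to which it gave one (0.718% higher and 2.76% lower), and limma with quality weights called 0 genes. The groups did not overlap for 4 members, with Hdc-GFPhi above for Trp53 and Gadd45g and below for Ccng1 and Trp53inp1, where 11.9% of all genes had groups that did not overlap (6.02% with Hdc-GFPhi above and 5.87% below). Over the 10 members 5 log2 fold changes were positive and 5 negative, with a median of -0.0092, and the median over all genes tested was 0.011.

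**Figure D2:**
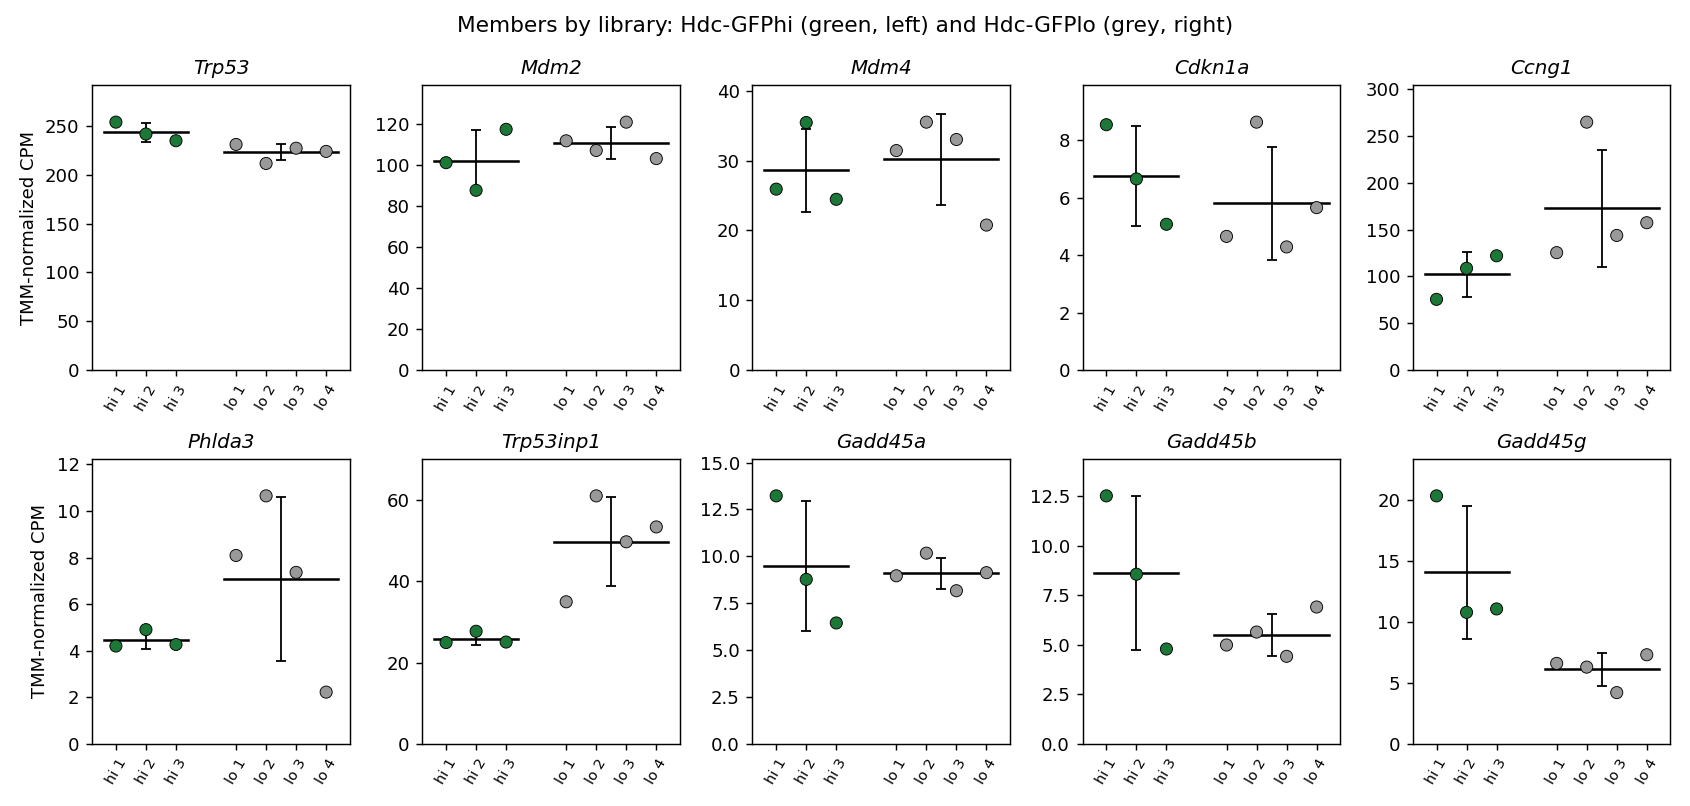
TMM-normalized CPM of each member (y axes, each from 0) in every library (x axes; green points Hdc-GFPhi replicates 1 to 3, left; grey points Hdc-GFPlo replicates 1 to 4, right), with group means as lines and SDs as bars. All 3 Hdc-GFPhi points lie above the Hdc-GFPlo points for Trp53 and Gadd45g and below them for Ccng1 and Trp53inp1.

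**Figure D3:**
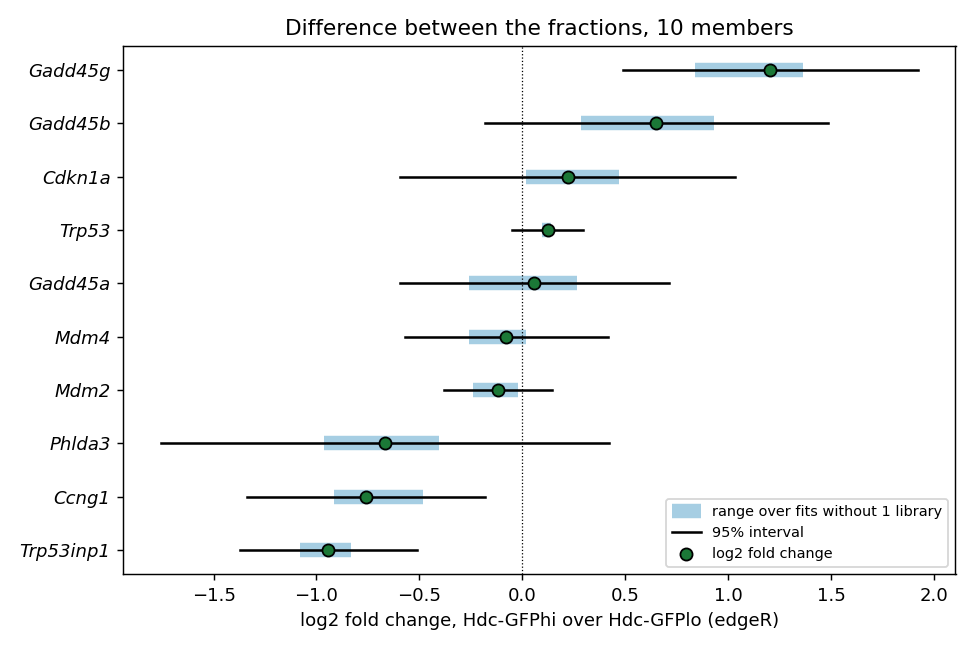
Log2 fold change of Hdc-GFPhi over Hdc-GFPlo by edgeR (x axis) for the 10 members (y axis, ordered by value), with the 95% interval as a line and the range over the 7 fits that each leave out 1 library as a blue band. The intervals of Gadd45g (0.49 to 1.92), Ccng1 (-1.34 to -0.18) and Trp53inp1 (-1.37 to -0.51) do not hold 0.

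Trp53 was the most abundant member for its length, at 57.4 ± 3.33 CPM per kilobase of exon over the 7 libraries (SD), with exon lengths from GENCODE M21. It was measured at 254, 242 and 235 CPM in Hdc-GFPhi and at 231, 212, 227 and 224 CPM in Hdc-GFPlo. Every Hdc-GFPhi library lay above every Hdc-GFPlo library, although the nearest pair was only a few CPM apart. The log2 fold change was 0.12 (SE 0.08, 95% interval -0.05 to 0.30, edgeR adjusted p = 0.546), and it stayed positive in the fits without 1 library, between 0.09 and 0.14.

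Mdm2, itself switched on by p53 in a feedback loop, was at 101, 87.8 and 118 CPM in Hdc-GFPhi and 112, 107, 121 and 103 CPM in Hdc-GFPlo. The groups overlapped, and the log2 fold change was -0.12 (SE 0.12, 95% interval -0.38 to 0.14, edgeR adjusted p = 0.724). Mdm4, which binds p53 without degrading it, was at 25.9, 35.5 and 24.5 CPM in Hdc-GFPhi and 31.4, 35.5, 33.0 and 20.8 CPM in Hdc-GFPlo. Its lowest value was in Hdc-GFPlo replicate 4, and its log2 fold change of -0.08 (SE 0.22, 95% interval -0.57 to 0.41) became 0.016 without Hdc-GFPhi replicate 3 and 0.0058 without Hdc-GFPlo replicate 2.

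Among the p53 targets, Trp53inp1, which encodes a stress protein that promotes p53 activity and autophagy, was measured at 24.9, 27.7 and 25.0 CPM in Hdc-GFPhi and at 34.9, 61.0, 49.7 and 53.3 CPM in Hdc-GFPlo. The Hdc-GFPhi libraries were close to each other (25.9 ± 1.57 CPM, SD, n = 3) and all lay below the lowest Hdc-GFPlo library, replicate 1, while Hdc-GFPlo spread more widely (49.7 ± 10.9 CPM, SD, n = 4). The log2 fold change was -0.94 (SE 0.19, edgeR unadjusted p = 6.85e-04, adjusted p = 0.226), and DESeq2 gave an adjusted p of 0.00164. It was lower in Hdc-GFPhi in every fit without 1 library, with values from -1.08 to -0.83, and was -0.89 without both Hdc-GFPhi replicate 1 and Hdc-GFPlo replicate 4.

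Ccng1, the gene for cyclin G1, which recruits a phosphatase to Mdm2, was second among the members for its length (40.6 ± 17.1 CPM per kilobase over the 7 libraries). It was at 75.6, 109 and 122 CPM in Hdc-GFPhi and at 125, 265, 144 and 157 CPM in Hdc-GFPlo. The groups did not overlap but almost touched, as Hdc-GFPhi replicate 3 lay just under Hdc-GFPlo replicate 1, and Hdc-GFPlo replicate 2 was far above its group. The log2 fold change was -0.76 (SE 0.26, edgeR unadjusted p = 0.0156, adjusted p = 0.309). It was -0.48 without Hdc-GFPlo replicate 2, and without Hdc-GFPhi replicate 1 it was -0.58 with an unadjusted edgeR p of 0.0623. DESeq2 placed it at its threshold, with an adjusted p of 0.0495.

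Cdkn1a, the gene for the cell cycle inhibitor p21 and the best known p53 target, was the lowest member for its length, at 1.75 ± 0.503 CPM per kilobase over the 7 libraries. Mdm4 was next at 1.99 ± 0.392 CPM per kilobase, a gap smaller than either SD. Cdkn1a had 193, 160 and 107 counts in Hdc-GFPhi (8.54, 6.65 and 5.07 CPM) and 96, 162, 96 and 117 counts in Hdc-GFPlo (4.65, 8.63, 4.29 and 5.65 CPM). The groups overlapped throughout, with the highest level of all in Hdc-GFPlo replicate 2. Its log2 fold change was 0.22 (SE 0.36, 95% interval -0.60 to 1.03, edgeR adjusted p = 0.851), an interval that holds a change of 2-fold upward, and it was -0.0079 without both Hdc-GFPhi replicate 1 and Hdc-GFPlo replicate 4. An unnamed transcript on the opposite strand (AC167363.2) covers 7.68% of its exons in GENCODE M21, and the kit does not mark strand.

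Phlda3, which encodes a lipid-binding protein that holds back AKT, was at 4.20, 4.91 and 4.27 CPM in Hdc-GFPhi and 8.09, 10.7, 7.36 and 2.22 CPM in Hdc-GFPlo. Hdc-GFPlo replicate 4 was the lowest library of all and the other 3 of its group were the highest. Its log2 fold change was -0.67 (SE 0.49, edgeR unadjusted p = 0.201, adjusted p = 0.619). Leaving out Hdc-GFPlo replicate 4 gave -0.96, with an unadjusted edgeR p of 0.0160 and an adjusted p of 0.299.

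Gadd45g had the largest fold change of the members. It had 459, 259 and 233 reads in Hdc-GFPhi (20.3, 10.8 and 11.05 CPM), against 136, 118, 94 and 151 reads in Hdc-GFPlo (6.59, 6.28, 4.20 and 7.30 CPM). Each Hdc-GFPhi library was above each Hdc-GFPlo library, and Hdc-GFPhi replicate 1 was far above the other libraries of its group. The log2 fold change was 1.20 (SE 0.32, edgeR unadjusted p = 0.00395, adjusted p = 0.239), with a DESeq2 adjusted p of 0.0364. It was 0.84 in the fit that left out Hdc-GFPhi replicate 1 and 0.93 in the one that also left out Hdc-GFPlo replicate 4. Over the fits without 1 library the adjusted edgeR p lay between 0.160 and 0.627.

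Gadd45b, the member induced by inflammatory and growth factor signals, was at 12.5, 8.56 and 4.79 CPM in Hdc-GFPhi and 4.99, 5.64, 4.42 and 6.91 CPM in Hdc-GFPlo. The groups overlapped, because Hdc-GFPhi replicate 3 lay among the Hdc-GFPlo libraries. The log2 fold change was 0.65 (SE 0.37, 95% interval -0.18 to 1.48, edgeR adjusted p = 0.506). It was 0.28 without Hdc-GFPhi replicate 1 and 0.93 without Hdc-GFPhi replicate 3. In each group the library with the highest Gadd45b level, Hdc-GFPhi replicate 1 or Hdc-GFPlo replicate 4, was also the one with the highest summed immediate early genes, and the same libraries led for Gadd45g. The part of these genes in the Gadd45 values was not tested.

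Gadd45a was at 13.2, 8.77 and 6.45 CPM in Hdc-GFPhi and 8.96, 10.2, 8.17 and 9.13 CPM in Hdc-GFPlo. The Hdc-GFPhi libraries included both the highest and the lowest value, and the log2 fold change was 0.06 (SE 0.29, 95% interval -0.60 to 0.71). Its sign was not stable, with -0.26 without Hdc-GFPhi replicate 1 and 0.26 without Hdc-GFPhi replicate 3. The non-coding gene E230016M11Rik, on the opposite strand, shares 19.1% of the Gadd45a exons in GENCODE M21.

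The make-up of the family's reads, which no scaling of the libraries alters, was compared after the values of the members had been seen. Gadd45g held 44.1%, 38.3% and 49.6% of Gadd45 reads in Hdc-GFPhi and 32.1%, 28.4%, 25.0% and 31.3% in Hdc-GFPlo. All Hdc-GFPhi libraries had a larger Gadd45g share than any Hdc-GFPlo library, also without Hdc-GFPhi replicate 1, which was the middle one of its group. The mean share was 44.0 ± 5.63% in Hdc-GFPhi (SD, n = 3) and 29.2 ± 3.20% in Hdc-GFPlo (SD, n = 4), a difference of 14.8 percentage points that was 12.0 to 17.6 over the sets without 1 library. Gadd45a made up 29.6 ± 1.38% in Hdc-GFPhi and 44.4 ± 4.05% in Hdc-GFPlo, again with no overlap. Gadd45b made up 26.4 ± 4.55% in Hdc-GFPhi and 26.4 ± 2.27% in Hdc-GFPlo. No test is given for the shares, since they were chosen for a difference already seen. The 3 shares sum to the whole, so they are not independent. The exact Clopper-Pearson 95% bounds of every share lay within 5.18 percentage points of it, and they cover counting error only, since amplified reads are not independent molecules. Per kilobase of exon, Gadd45g was at 12.0 ± 4.63 CPM in Hdc-GFPhi and 5.19 ± 1.14 CPM in Hdc-GFPlo. On the same scale Gadd45a was at 5.38 ± 1.95 CPM in Hdc-GFPhi and 5.16 ± 0.467 CPM in Hdc-GFPlo, and Gadd45b at 5.43 ± 2.43 CPM in Hdc-GFPhi and 3.46 ± 0.673 CPM in Hdc-GFPlo. In Hdc-GFPlo the levels of Gadd45g and Gadd45a thus differed by less than their spread, while in Hdc-GFPhi the mean of Gadd45g was above those of both other genes.

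**Figure D4:**
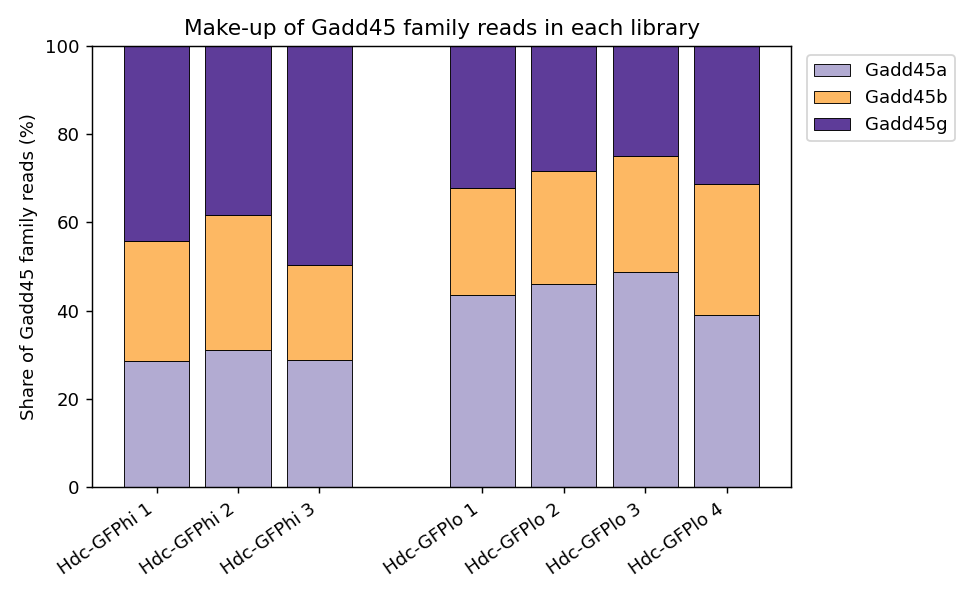
Share of each gene in the reads of the Gadd45 family (y axis, percent from 0 to 100) in every library (x axis; Hdc-GFPhi replicates 1 to 3, left; Hdc-GFPlo replicates 1 to 4, right). Gadd45g takes 38.3% to 49.6% in Hdc-GFPhi libraries, against 25.0% to 32.1% in Hdc-GFPlo libraries.

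The stretches of 250 bases before the start of the Gadd45 genes and of Ccng1 and Cdkn1a are printed because Gadd45g and Ccng1 were the members with a promoter entry that had the largest fold changes, Gadd45a and Gadd45b are the family members that Gadd45g is compared with, and Cdkn1a is the best known p53 target. They are RefSeq sequences of GRCm38.p6, not the build of the counts, and 9 of the 10 members matched an entry (Trp53inp1 did not). They lie at chr13:51846425-51846674 (plus strand) for Gadd45g, chr10:80929841-80930090 (plus strand) for Gadd45b, chr6:67037408-67037657 (minus strand) for Gadd45a, chr11:40755287-40755536 (minus strand) for Ccng1 and chr17:29090729-29090978 (plus strand) for the upstream start of Cdkn1a. Capitals mark the p53 half-site consensus, the CCAAT box (CCAAT), the GC box (GGGCGG) and the TATA box (TATAAA), each searched on both strands.
Gadd45g: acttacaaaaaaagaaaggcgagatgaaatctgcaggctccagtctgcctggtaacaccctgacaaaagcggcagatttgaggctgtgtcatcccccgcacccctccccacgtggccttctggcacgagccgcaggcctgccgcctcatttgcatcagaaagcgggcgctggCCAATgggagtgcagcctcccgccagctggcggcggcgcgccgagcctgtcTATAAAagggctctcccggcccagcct
Gadd45b: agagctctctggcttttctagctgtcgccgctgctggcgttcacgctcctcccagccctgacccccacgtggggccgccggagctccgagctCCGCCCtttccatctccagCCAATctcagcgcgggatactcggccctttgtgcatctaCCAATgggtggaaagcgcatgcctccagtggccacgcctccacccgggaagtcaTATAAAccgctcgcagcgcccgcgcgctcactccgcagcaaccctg
Gadd45a: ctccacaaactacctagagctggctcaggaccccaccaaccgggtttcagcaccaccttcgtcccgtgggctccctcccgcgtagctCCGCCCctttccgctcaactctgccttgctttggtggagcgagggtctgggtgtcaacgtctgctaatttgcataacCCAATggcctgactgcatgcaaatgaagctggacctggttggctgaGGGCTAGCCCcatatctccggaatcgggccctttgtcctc
Ccng1: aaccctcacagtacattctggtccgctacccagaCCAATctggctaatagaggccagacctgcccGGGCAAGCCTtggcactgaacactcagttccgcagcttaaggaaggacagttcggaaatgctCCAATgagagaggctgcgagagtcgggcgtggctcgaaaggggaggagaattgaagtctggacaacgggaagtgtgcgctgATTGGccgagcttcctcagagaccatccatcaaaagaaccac
Cdkn1a: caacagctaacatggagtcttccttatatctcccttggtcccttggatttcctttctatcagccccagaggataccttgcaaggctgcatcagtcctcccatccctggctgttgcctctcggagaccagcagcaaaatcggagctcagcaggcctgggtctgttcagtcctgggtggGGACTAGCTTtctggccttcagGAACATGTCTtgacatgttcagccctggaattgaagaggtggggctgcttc

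The Gadd45g and Gadd45b stretches each held 1 TATA box, a motif found in 12.4% of all 32851 RefSeq promoter stretches of that length, and that of Gadd45a held none. All of the family held a CCAAT box (33.8% of all promoters), with 1 in Gadd45g, 2 in Gadd45b and 1 in Gadd45a, and Ccng1 held 3. A GC box (32.7% of all promoters) was found in Gadd45b and Gadd45a, with 1 each, and not in Gadd45g. The p53 half-site consensus, present in 7.13% of all promoters, was matched 2 times upstream of Cdkn1a and 1 time each in Ccng1 and Gadd45a, and not in the Gadd45g and Gadd45b stretches. Of the stretches not printed, those of Trp53 and Mdm2 held 1 match each, and those of Phlda3, both starts of Mdm4 and the downstream start of Cdkn1a held none. No match says only that these letters are not in this window, and no binding was measured here.

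Other genes of the pathway were read from 3 lists. Of 32 p53 target genes outside the members, all tested, 19 had higher and 13 lower values in Hdc-GFPhi (median log2 fold change 0.12). All genes tested split into 6665 higher and 6252 lower. Of the 32, 0 passed edgeR over all genes or DESeq2, which gave some of them, Eda2r included, no adjusted p. The unadjusted p of Eda2r was 3.26e-04 by DESeq2 and 0.163 by limma with quality weights. At an unadjusted edgeR p under 0.05 there were 2 (6.25%, against 12.2% of all genes tested), Bax and Eda2r. The count was 6 without Hdc-GFPhi replicate 3 and 1 without Hdc-GFPlo replicate 2. Bax, the gene for the pore-forming death protein of mitochondria, was at 58.3, 65.9 and 62.8 CPM in Hdc-GFPhi and 47.2, 47.2, 53.03 and 46.8 CPM in Hdc-GFPlo. Every Hdc-GFPhi library lay above every Hdc-GFPlo library, and the log2 fold change was 0.36 (SE 0.11, edgeR adjusted p = 0.300). Eda2r, a death receptor of the TNF family, had 3, 5 and 0 reads in Hdc-GFPhi, against 72, 39, 108 and 2 in Hdc-GFPlo, so that replicate 4 of Hdc-GFPlo lay with the Hdc-GFPhi libraries. Plk2, a polo-like kinase that also belongs to early response genes, was at 25.3, 9.60 and 3.89 CPM in Hdc-GFPhi and 0.775, 2.13, 8.08 and 5.60 CPM in Hdc-GFPlo (fitted log2 change 1.64, SE 0.77, or 0.70 without Hdc-GFPhi replicate 1).

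Regulators of p53 came next. Of 25 listed, 22 were tested, 15 with higher and 7 with lower values (median log2 fold change 0.050), while Cdkn2a, Trp63 and Trp73 had at most 1 count in a library. Of the 22, edgeR called 0 at its adjusted p, and so did DESeq2, which gave some of them no adjusted p. At an unadjusted edgeR p under 0.05 there were 2, both higher (9.09%, against 4.92% of all genes higher and 12.2% in either direction). That count was 4 without Hdc-GFPhi replicate 3, 0 without Hdc-GFPlo replicate 3, 0 without Hdc-GFPhi replicate 1 together with Hdc-GFPlo replicate 4, and 1 without Hdc-GFPhi replicate 1 or 2 or Hdc-GFPlo replicate 2 or 4. Kat5, the acetyltransferase Tip60 that modifies p53 and ATM, was at 75.8, 60.7 and 66.4 CPM in Hdc-GFPhi and 59.5, 56.1, 46.6 and 43.8 CPM in Hdc-GFPlo (fitted log2 change 0.39, SE 0.15, edgeR adjusted p = 0.334). The groups did not overlap, though narrowly. Huwe1, a ubiquitin ligase of p53, was at 112, 134 and 99.5 CPM in Hdc-GFPhi and 112, 62.9, 89.3 and 81.0 CPM in Hdc-GFPlo (0.42, SE 0.18), with overlapping groups. Sirt1, a deacetylase of p53, gave -0.51 (SE 0.25), and its groups overlapped.

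The list of Gadd45 partners and the MAP kinase arm also held Ppp1r15a, Ppp1r15b and Ddit3, which are neither. With these counted, it had the largest share of low p-values among these lists. Of 19 listed, 18 were tested, 8 with higher and 10 with lower values (median log2 fold change -0.027), and 5 had an unadjusted edgeR p under 0.05 (27.8%, against 12.2% of all genes). Of these, Cdk1, Ccnb1 and Map3k5 were lower, and Ppp1r15a and Ddit3, which were picked out after their values were seen, were higher. The count was 2 without Hdc-GFPhi replicate 1 or Hdc-GFPlo replicate 1 or 3, and 3 without Hdc-GFPlo replicate 4. Ccnb1, the gene for cyclin B1, was at 45.7, 45.6 and 67.9 CPM in Hdc-GFPhi and 77.3, 104, 118 and 93.6 CPM in Hdc-GFPlo. Cdk1, the kinase that cyclin B1 activates, was at 120, 128 and 136 CPM in Hdc-GFPhi and 188, 202, 209 and 155 CPM in Hdc-GFPlo. For both genes all Hdc-GFPhi libraries lay below all Hdc-GFPlo libraries, with log2 fold changes of -0.89 for Ccnb1 (SE 0.19) and -0.56 for Cdk1 (SE 0.12). The edgeR adjusted p was 0.226 for both, and the DESeq2 adjusted p was 0.00160 for Ccnb1 and 0.00183 for Cdk1. They belong to the mitosis genes, whose sum over 24 genes was 2209 to 2703 CPM in the Hdc-GFPhi libraries and 2761 to 4383 CPM in the Hdc-GFPlo ones, with the low end in Hdc-GFPlo replicate 4. All 24 had lower values in Hdc-GFPhi. Of them 18 (75%) were at an unadjusted edgeR p under 0.05, against 7.31% of all genes tested that were lower at that p. Map3k5, the stress kinase ASK1, was at 27.6, 27.8 and 36.6 CPM in Hdc-GFPhi and 49.8, 37.1, 41.2 and 37.6 CPM in Hdc-GFPlo (-0.43, SE 0.17, edgeR adjusted p = 0.351), without overlap. Ppp1r15a, also called Gadd34, was at 618 CPM in Hdc-GFPhi replicate 1, 233 and 166 CPM in the other Hdc-GFPhi libraries and 151 to 188 CPM in Hdc-GFPlo. Map3k4, the kinase that Gadd45 proteins activate, had a log2 fold change of -0.25 (SE 0.14, edgeR adjusted p = 0.501).

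**Figure D5:**
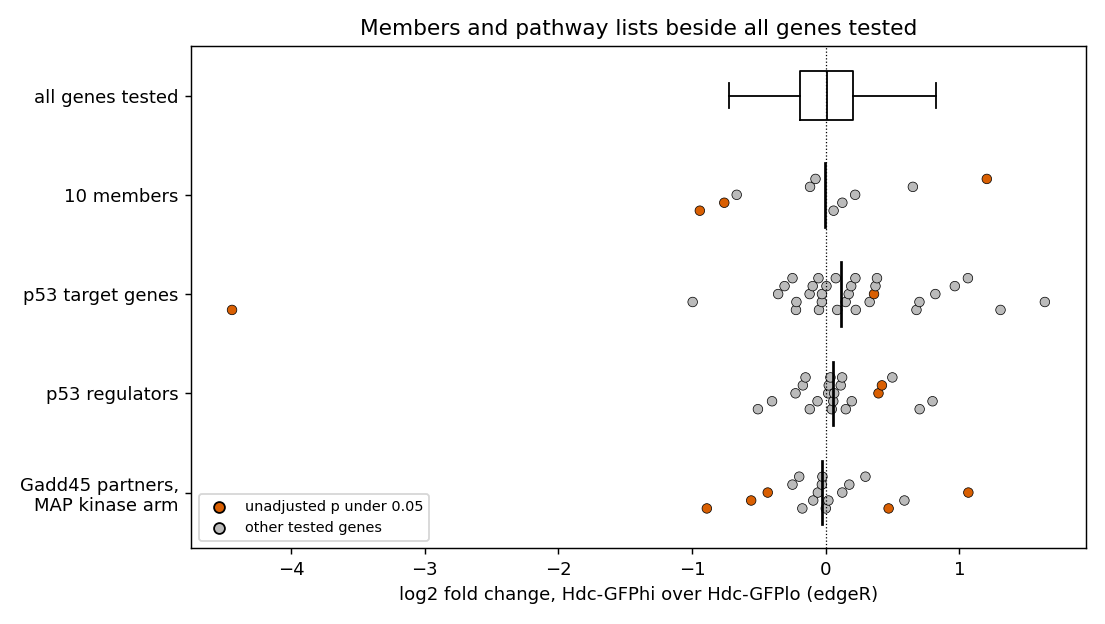
Log2 fold change of Hdc-GFPhi over Hdc-GFPlo by edgeR (x axis) for all 12917 genes tested (box from the first to the third quartile, line at the median, whiskers from the 5th to the 95th percentile) and for each tested gene of the members and 3 pathway lists (points, black line at the median; orange where the unadjusted p was under 0.05). Medians lie between -0.027 and 0.12, and the point at the far left is Eda2r.

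The genes whose levels followed those of a member most closely were sought over the 7 libraries, as the smallest root mean square difference between log2 CPM profiles after each was centred on its mean, among 10468 other genes that averaged 5 CPM or more. For Gadd45g these were Snx32 (0.177), Rrad (0.209) and F10 (0.233), where the profile of Gadd45g itself had a root mean square of 0.557. Snx32 shared its highest value in Hdc-GFPhi replicate 1 (18.1 CPM). For Gadd45b they were A230050P20Rik (0.124), Hemk1 (0.125) and Zc3h6 (0.128), and for Gadd45a they were Smox (0.0608), 2700097O09Rik (0.0834) and Trappc6b (0.0882). For Cdkn1a they were Nradd (0.0984), Brp44l (0.102) and Zfp560 (0.102), all of which had, like Cdkn1a, high values in Hdc-GFPlo replicate 2 and in Hdc-GFPhi replicates 1 and 2. With 7 libraries and this many candidates, likeness of this kind is a description only.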

How the data were processed

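RNA from 500 sorted cells per library was isolated with a PicoPure kit, amplified with SMARTer Ultra Low Input, which does not mark strand, and built into Nextera XT libraries, per the labels' protocols. Molecular identifiers are not mentioned. Per the submitters' processing notes, bcl2fastq 1.8.4, TopHat2 (2.0.4 or 2.04), Bowtie2 and HTSeq 0.6.1 were used with mm9. No source used here gives the annotation, strand setting or read filters. The authors deposited 1 table of unnormalized gene counts, with 1 column per library, and columns were assigned to samples through the code in each description. All 7 columns were used.

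In R 4.3.3 with edgeR 4.0.16, filterByExpr (minimum count 10) left 12917 genes. TMM scaling and the quasi-likelihood F test with robust settings compared Hdc-GFPhi with Hdc-GFPlo with no covariate, and p-values were Benjamini-Hochberg adjusted over all genes tested (threshold 0.05). Dividing a log2 fold change by the root of its F value gave its SE, and intervals use the test's degrees of freedom. Log2 CPM used a pseudocount of 2. DESeq2 1.42.0, limma 3.58.1 and other alternatives are given in the closing section. The steps were tested on simulated data. The members and lists were chosen with earlier results of these data known. Named genes were the members, the 3 genes of each pathway list with the smallest unadjusted p, the 3 nearest profiles of Cdkn1a and of each Gadd45 gene, and Hdc. Others (Map3k4, Ppp1r15a, Ddit3, Kit, Cd3e, Pf4, Itga2b, Vwf, Hbb-b1, Hba-a1, Fosb, Klf2, Klf4, Nfkbia, Cdkn2a, Trp63 and Trp73) were chosen after their values were seen. Cd48, Flt3, Ptprc and Ppp1r15b are named only as members of their list.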

Additional observations from a re-analysis of the deposited data

Results flagged for a closer look

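In Hdc-GFPlo, replicate 4 was far from the rest in the summed immediate early genes, at 4742 CPM against 2381 to 2618 CPM in the other 3 libraries (a gap of 0.900 of the group's range, past the 95% critical value of Dixon's test). Bax was at 53.03 CPM in Hdc-GFPlo replicate 3 and at 46.8 to 47.2 CPM in the other 3 (a gap of 0.924), and that library still lay below every Hdc-GFPhi library. Of 35 such groups of 4 values tested, 2 stood out, where chance gives about 1 in 20.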

How the results depend on the processing

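The direction of Trp53, Mdm2, Ccng1, Phlda3, Trp53inp1, Gadd45b and Gadd45g was kept in all 17 alternatives (other scalings, filters and tools, a replicate block, libraries left out). Log2 fold changes were -1.08 to -0.83 for Trp53inp1, -0.92 to -0.48 for Ccng1 and 0.84 to 1.36 for Gadd45g. Gadd45a turned to -0.014 with limma and quality weights and to -0.27 without Hdc-GFPhi replicate 1 together with Hdc-GFPlo replicate 4, and ranged from -0.26 to 0.26 over the fits without 1 library. Cdkn1a turned to -0.0079 without both of these libraries, and Mdm4 ranged from -0.26 to 0.016 over the fits without 1 library (0.0058 without Hdc-GFPlo replicate 2). The Gadd45b share differed by -2.11 to 2.39 percentage points without 1 library and by 0.593 without both. The cause of these turns was not tested.

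DESeq2 called 344 genes, 71 higher and 273 lower in Hdc-GFPhi, and 3 members, where edgeR called 0. Its adjusted p was 0.00164 for Trp53inp1, 0.0364 for Gadd45g and 0.0495 for Ccng1. The 3 members at an unadjusted p under 0.05 became 2 to 4 without 1 library, and all genes 997 (without Hdc-GFPhi replicate 1) to 1884 against 1579. Over these fits p53 targets gave 1 to 6, p53 regulators 0 to 4 and the Gadd45 partner list 2 to 5. Without both libraries regulators gave 0 and the Gadd45 partner list 3. The replicate block was fitted on replicates 1 to 3 of each group, so Hdc-GFPlo replicate 4 was left out, and it gave 0 adjusted calls. At an unadjusted p under 0.05 it gave 3 genes of the Gadd45 partner list and 4 members, Phlda3 included. Leaving out Hdc-GFPlo replicate 4 without the block gave the same 4 members and also 3 genes of that list. Adding the block thus left these counts unchanged. Same-numbered libraries share only a number: their deviations from the group means correlated at -0.0629, -0.00569 and -0.141, and no Hdc-GFPhi library correlated best with the Hdc-GFPlo library of its number. Unadjusted calls split into 635 higher and 944 lower with TMM and into 826 and 768 with library totals, while the members' calls stayed 1 higher and 2 lower. The 95% intervals of Trp53, Mdm2, Mdm4, Cdkn1a, Phlda3, Gadd45a and Gadd45b hold 0, and that of Phlda3 is the widest of the 10 (-1.75 to 0.42).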
